A study of Mus musculus with 9 samples.

Results

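Interferon response genes were examined in RNA from crypt epithelium of the mouse intestine. The 46 genes were chosen by symbol from the 24930 gene symbols of the deposited table: 5 transcription factors of the STAT and IRF families and 41 genes that interferons induce, among them antiviral proteins and the immunity-related GTPases. All 46 were present. The 9 libraries form 3 groups, each sampled once on days 8, 9 and 10 after induction, and the mutants carry 1 gain-of-function allele of β-catenin, the effector of Wnt signalling. The groups are called here by their titles: Control, Bcathet (heterozygous for the β-catenin allele) and Cdx2het_Bcathet (heterozygous for that allele and for Cdx2, a regulator of intestinal identity). In the library names, CDX2HET stands in the set titled Bcathet and is missing from the set titled Cdx2het_Bcathet, so titles and library names disagree on where the Cdx2 allele lies, and directions between the sets hold for the titles only. The sources used here give no genotype for the controls, no Cre driver, and no strain, sex or age. Nothing in the labels says that the libraries came from separate animals, so the tests measure the spread between these libraries.

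Levels are in FPKM, which scales fragments for transcript length and for the size of the library. From the steps between low values, 1 FPKM corresponded to 16.8 to 19.1 fragments per kilobase of transcript. The Cdx2het_Bcathet library of day 9 stood apart from the other mutant libraries. Xist, the RNA of the inactive X chromosome, was at 0.1 FPKM there and at 27.04 to 39.4 in the other 8 libraries. The summed level of 4 Y-linked genes was 41.7 FPKM there and no more than 0.047 elsewhere. By these RNAs that library was male and the other 8 female, so it differed in sex from every control. Sex cannot be told apart from anything else particular to that library. Of the 46 interferon response genes, 20 lay within the control range in that library, 17 above it and 9 below it. Results are therefore given with and without it. This choice drew on the values of the same 46 genes, so calls made without that library describe the data and are not independent support. The 10 epithelial markers summed to 6919 to 8333 FPKM in the 9 libraries, so the labelled tissue was detected.

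Interferons are secreted proteins that warn cells of infection. The type I and type III interferons act through the receptors IFNAR1 with IFNAR2 and IFNLR1 with IL10RB, and the kinases JAK1 and TYK2 then activate a complex that holds STAT2 and IRF9 and binds the interferon-stimulated response element. Interferon-γ, made mainly by lymphocytes, acts through IFNGR1 and IFNGR2, and JAK1 and JAK2 then signal to the gamma-activated site (GAS). In the intestine the type III interferons are known for antiviral defence of the epithelium, and interferon-γ for immunity-related GTPases, guanylate-binding proteins and antigen presentation.

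The immunity-related GTPases stood furthest above control in the mutant libraries, and no interferon response gene passed the test across all genes when all 9 libraries were used. All 46 had a positive fold change for both mutant sets against control, with a median log2 fold change of 0.56 beside −0.002 over the 12097 genes tested. Fold changes, on the scale of log2(FPKM + 1), are given with their standard error, and adjusted p-values are from limma with Benjamini-Hochberg adjustment over all genes tested. At an adjusted p of 0.05 the test called 0 of 46, against 1.16% of all genes in either direction. At an unadjusted p under 0.05, 19 of 46 were higher and 0 lower, where 10.1% of all genes were higher. The day-9 Cdx2het_Bcathet library decided the count: without it, 20 of 46 were called higher and 0 lower, where 4.65% of all genes were higher and 3.64% lower, and the median was 0.68. Without any other library the count was 0. The calls without the day-9 Cdx2het_Bcathet library follow a choice made on these values and are a description only.

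All 46 genes passed the filter of 1 FPKM in 3 libraries, but 8 of them had all 3 controls below 1 FPKM and so passed through the mutants alone. These were Tgtp1, Iigp1, Gbp2, Gbp3, Mx1, Mx2, Ifit2 and Cxcl10. Another 2, Gbp7 and Rsad2, had some controls below 1 FPKM and passed in part through the mutants. The other 36, with every control at 1 FPKM or more, had a median of 0.48 with all libraries. Of these 36, 0 were called with all 9 libraries and 12 were called higher without the day-9 Cdx2het_Bcathet library. Over all genes tested, 4.65% were called higher without that library, and the share among genes with such controls was not computed. All 6 mutant libraries lay above all 3 controls for 9 of the 46 genes, where 5.19% of all genes did so. The 5 mutant libraries other than the day-9 Cdx2het_Bcathet library lay above all controls for 19 genes, where 9.9% of all genes did. These counts include genes that passed the filter through the mutants. Over the 36 with every control at 1 FPKM or more, the counts were 4 and 11, where 4.63% and 9.32% of all such genes did so. In these libraries of crypt epithelium, more RNA per cell and more cells that hold the RNA cannot be told apart.

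**Figure D1:**
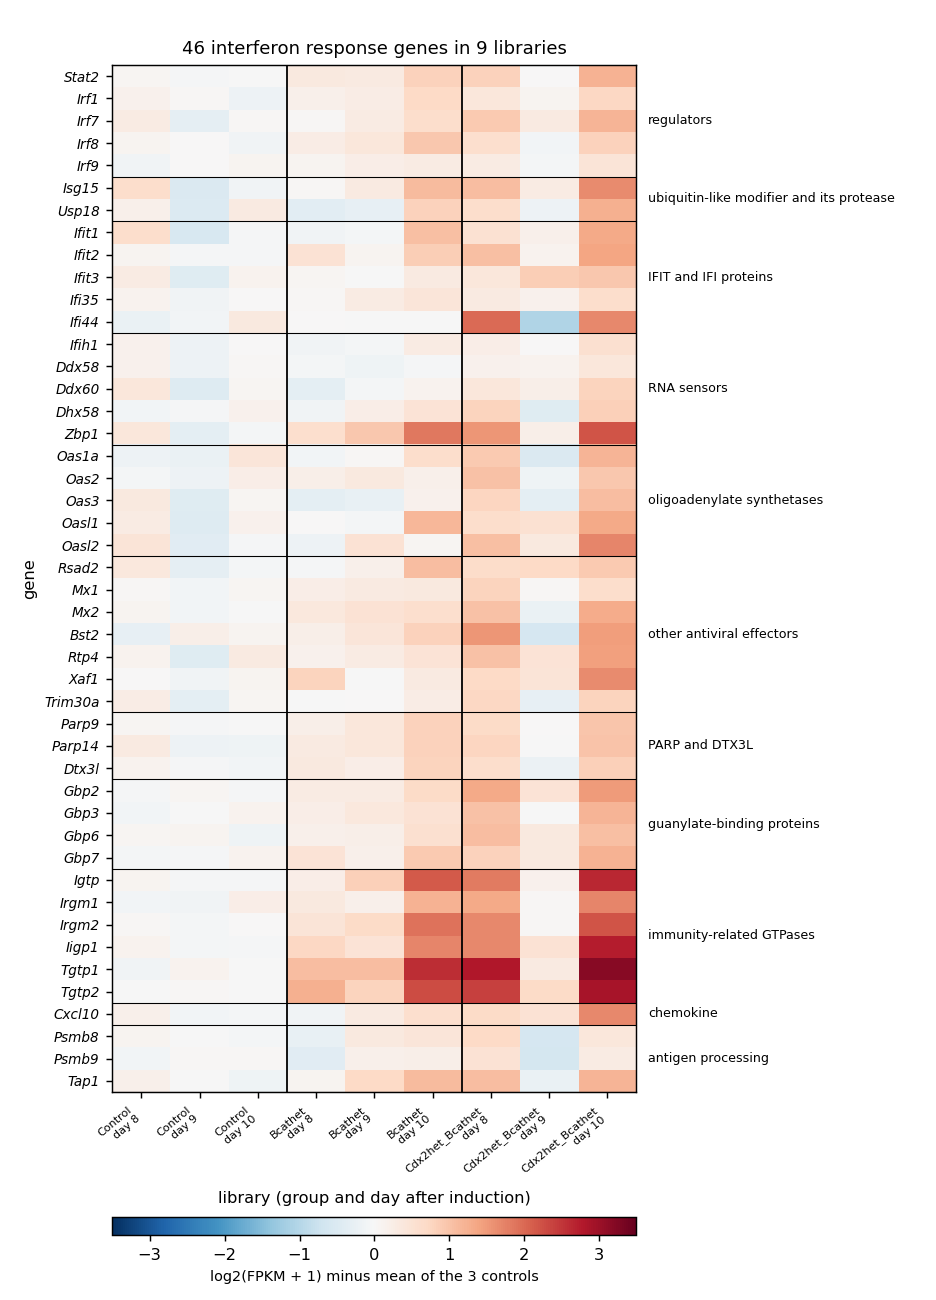
Each of the 46 interferon response genes (rows, by role) in each of the 9 libraries (columns, by group and day), coloured by log2(FPKM + 1) minus the mean of the 3 controls. The day-10 and day-8 Cdx2het_Bcathet columns and the day-10 Bcathet column are the reddest, the day-9 Cdx2het_Bcathet column lies near the controls, and the immunity-related GTPase rows hold the largest differences.

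Promoter sequences show which response elements the genes carry near their start sites. RefSeq promoter windows of build GRCm38.p6, from 250 bases before the start site, were found for 35 of the 46 genes, in 41 windows of 300 bases. Each window was searched on both strands for GAAANNGAA, the core of the interferon-stimulated response element, and for TTCNNNGAA, the core of the GAS, which reads the same on both strands. The 2 cores can overlap each other. The first core was in 56.1% of the 41 windows and in 8.56% of all 32851 windows of the same length. The GAS core was in 29.3% and in 8.30%, and both were in 17.1% and in 1.07%. A match is a description of the letters and does not show binding.

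The stretches of 120 bases before the start site are shown for 4 of the 6 immunity-related GTPases, the role that stood furthest from control, 5′ to 3′ on the strand of the gene, with both cores in capitals. They lie at chr11:58199436-58199555 on the plus strand (Igtp), chr11:58214857-58214976 on the plus strand (Irgm2), chr11:48992247-48992366 on the minus strand (Tgtp1) and chr11:49064213-49064332 on the minus strand (Tgtp2).
Igtp: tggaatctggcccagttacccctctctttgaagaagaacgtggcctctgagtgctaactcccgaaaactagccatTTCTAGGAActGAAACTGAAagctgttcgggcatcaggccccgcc
Irgm2: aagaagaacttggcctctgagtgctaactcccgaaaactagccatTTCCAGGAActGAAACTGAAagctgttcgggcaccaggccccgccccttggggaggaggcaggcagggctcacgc
Tgtp1: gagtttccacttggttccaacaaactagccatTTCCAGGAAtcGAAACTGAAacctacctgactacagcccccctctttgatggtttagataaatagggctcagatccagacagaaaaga
Tgtp2: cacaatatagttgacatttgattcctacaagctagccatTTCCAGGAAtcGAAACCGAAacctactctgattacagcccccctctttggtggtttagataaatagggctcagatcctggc

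In all 4, the GAS core comes first and the interferon-stimulated response element core follows it, close by. The first bases of the pair lay 45 and 34 bases before the start site in Igtp, 75 and 64 in Irgm2, 88 and 77 in Tgtp1, and 81 and 70 in Tgtp2. The window of Irgm1, of the same role, held 2 matches to the interferon-stimulated response element core, 30 and 24 bases before the start site, and none to the GAS core. Both cores were also in the windows of Bst2, Gbp7 and Oas1a, of other roles. Other arrangements are shown in the same way for Isg15 at chr4:156200819-156200938 on the minus strand, Ifit1 at chr19:34640769-34640888 on the plus strand, Gbp2 at chr3:142620543-142620662 on the plus strand and Irf1 at chr11:53769894-53770013 on the plus strand.
Isg15: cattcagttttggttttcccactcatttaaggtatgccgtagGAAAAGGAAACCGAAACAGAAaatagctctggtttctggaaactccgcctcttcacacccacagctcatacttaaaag
Ifit1: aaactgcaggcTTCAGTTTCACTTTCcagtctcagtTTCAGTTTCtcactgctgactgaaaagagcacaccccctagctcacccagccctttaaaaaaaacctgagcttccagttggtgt
Gbp2: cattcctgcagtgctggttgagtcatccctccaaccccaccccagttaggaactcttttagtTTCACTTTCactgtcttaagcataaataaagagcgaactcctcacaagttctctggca
Irf1: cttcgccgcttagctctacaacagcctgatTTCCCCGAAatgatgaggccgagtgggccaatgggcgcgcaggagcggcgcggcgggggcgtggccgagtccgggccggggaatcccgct

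Isg15 and Ifit1 held 3 matches each to the interferon-stimulated response element core, overlapping in a row in Isg15, and none to the GAS core. The matches in Ifit1 read on the opposite strand, as did the 1 match in Gbp2, and the window of Irf1 shown here held 1 match to the GAS core alone. The windows of Psmb9 and Tap1, neighbours transcribed in opposite directions, share 275 bases and held neither core.

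The immunity-related GTPases are cell-autonomous defence proteins that assemble on the vacuoles of intracellular parasites and bacteria. Tgtp1, taken as the marker of the whole group, was at 0.28, 0.522 and 0.365 FPKM in the controls of days 8, 9 and 10. It was at 1.91, 1.91 and 7.35 FPKM in Bcathet and at 8.63, 0.718 and 11.7 in Cdx2het_Bcathet. All 6 mutant libraries were above all controls, with the day-9 Cdx2het_Bcathet library nearest to them. The means were 0.389 ± 0.123 FPKM (SD, n = 3) in control and 5.37 ± 4.47 (n = 6) in the mutants, a ratio of 13.8. The log2 fold change of 1.84 ± 0.64 did not pass (adjusted p = 0.164), and without the day-9 Cdx2het_Bcathet library it was 2.29 ± 0.37 (adjusted p = 0.0208). The control values of Tgtp1 rest on an estimated 14 to 28 fragments, so the ratio is imprecise. It also depends on how reads shared with the near-identical Tgtp2 were assigned, and the ratio for Tgtp2 was 6.52.

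Tgtp2 is the near-identical neighbour of Tgtp1, with transcripts 99.8% identical over 2811 bases. It was at 1.06, 1.13 and 1.07 FPKM in control, at 3.98, 2.61 and 9.14 in Bcathet, and at 9.94, 2.32 and 14.5 in Cdx2het_Bcathet. Again no mutant library overlapped the controls, which differed little from each other. The fold change was 1.71 ± 0.50 (adjusted p = 0.119), and 2.04 ± 0.32 (adjusted p = 0.0202) without the day-9 Cdx2het_Bcathet library. Since reads can be shared between the copies, their sum is the safer value: it was 1.34, 1.66 and 1.44 FPKM in control, 5.89, 4.51 and 16.5 in Bcathet, and 18.6, 3.04 and 26.2 in Cdx2het_Bcathet. All 6 mutant sums were above all 3 controls, and day 10 was the highest of each set.

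Iigp1, which coats parasite vacuoles, was barely detected in control, at 0.2, 0.0509 and 0.0873 FPKM. It was at 0.841, 0.549 and 2.66 FPKM in Bcathet and at 2.54, 0.585 and 6.46 in Cdx2het_Bcathet. All 6 mutant libraries were above the controls (log2 1.31 ± 0.47, adjusted p = 0.171, and 1.59 ± 0.34, adjusted p = 0.0361, without the day-9 Cdx2het_Bcathet library). The control values rest on an estimated 3 to 11 fragments.

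Igtp, Irgm1 and Irgm2 belong to a regulatory class that holds the effector GTPases inactive on the cell's own membranes. Igtp was at 13.8, 12.5 and 12.3 FPKM in control, at 15.4, 23.8 and 59.8 in Bcathet, and at 47.7, 14.5 and 85.0 in Cdx2het_Bcathet. The lowest mutant library was above the highest control by a small margin, and the highest stood far above. Igtp missed the threshold with all libraries (1.30 ± 0.56, adjusted p = 0.238) and without the day-9 Cdx2het_Bcathet library (1.65 ± 0.42, adjusted p = 0.0597). Irgm2 was at 7.17, 6.58 and 6.99 FPKM in control, at 9.81, 11.5 and 28.4 in Bcathet, and at 24.4, 7.18 and 35.3 in Cdx2het_Bcathet. The day-9 Cdx2het_Bcathet library was barely above the highest control, and the fold change of 1.16 ± 0.49 (adjusted p = 0.227) became 1.47 ± 0.33 (adjusted p = 0.044) without it. Irgm1 was at 19.4, 19.0 and 24.9 FPKM in control, at 27.0, 23.9 and 50.1 in Bcathet, and at 53.7, 21.6 and 71.0 in Cdx2het_Bcathet. Both day-9 mutant libraries overlapped the controls, and Irgm1 missed the threshold with all libraries (0.81 ± 0.38, adjusted p = 0.269) and without the day-9 Cdx2het_Bcathet library (1.05 ± 0.25, adjusted p = 0.0508). In all, 4 of the 6 GTPase genes were called higher without that library, where 4.65% of all genes were, and 0 with it. Of the 4, Tgtp1 and Iigp1 passed the filter through the mutants alone. Tgtp1 and Tgtp2 can share reads and are not separate calls, so the count is a description only.

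**Figure D2:**
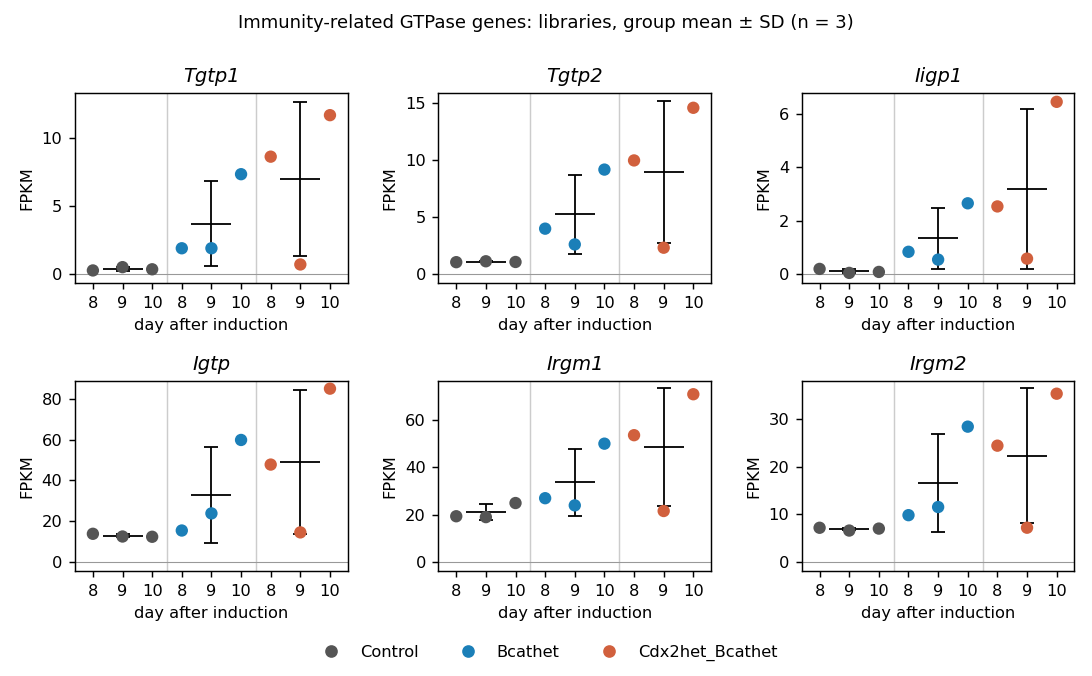
FPKM of the 6 immunity-related GTPase genes in each library (points, by day after induction, coloured by group) with the group mean and SD (lines, n = 3). In all 6 panels the controls lie close together, the day-10 libraries are the highest of their mutant set, and the day-9 Cdx2het_Bcathet point lies near the controls.

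The guanylate-binding proteins are large GTPases that act beside the immunity-related GTPases on pathogen membranes. All 4 members had low levels, with group means from 0.566 to 1.4 FPKM in control and from 1.64 to 2.68 in the mutants. Gbp2 had the smallest p of the 46 genes for both sets against control. It was at 0.527, 0.642 and 0.529 FPKM in control, at 0.926, 0.9 and 1.51 in Bcathet, and at 2.91, 1.19 and 3.37 in Cdx2het_Bcathet. No mutant library overlapped the controls, the day-9 Cdx2het_Bcathet library included (0.76 ± 0.22, adjusted p = 0.111). Gbp6 was at 1.49, 1.54 and 1.15 FPKM in control, at 1.72, 1.74 and 2.5 in Bcathet, and at 4.1, 2.04 and 3.98 in Cdx2het_Bcathet. The groups did not overlap, by a small margin at days 8 and 9 of Bcathet (0.57 ± 0.18, adjusted p = 0.136). Gbp6 shares 98.7% of its aligned transcript with Gbp10, and the sum of both averaged 1.42 ± 0.205 FPKM in control against 2.74 ± 1.17 in the mutants. Gm43302 is closer to Gbp6, 99.8% identical over 2603 bases. It is not among the deposited gene symbols, so the sum does not cover reads shared with it.

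Gbp7 was at 0.801, 0.819 and 1.06 FPKM in control, at 1.62, 1.13 and 2.57 in Bcathet, and at 2.32, 1.38 and 3.35 in Cdx2het_Bcathet. It too was above control in all 6 mutant libraries (0.65 ± 0.21, adjusted p = 0.148). Without the day-9 Cdx2het_Bcathet library all 4 members were called higher, where 4.65% of all genes were: Gbp2 by 0.91 ± 0.13 (adjusted p = 0.0128), Gbp3 by 0.74 ± 0.11, Gbp6 by 0.69 ± 0.12 and Gbp7 by 0.77 ± 0.18 (adjusted p = 0.0435). Gbp2 and Gbp3 passed the filter through the mutants alone and Gbp7 in part, so this count is a description only.

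The 5 regulators had a median fold change of 0.48, beside 1.31 for the immunity-related GTPases. Stat2, the STAT of the type I and III response, was at 9.73, 9.07 and 9.17 FPKM in control, at 12.02, 11.7 and 17.03 in Bcathet, and at 17.1, 9.51 and 23.0 in Cdx2het_Bcathet. Only the day-9 Cdx2het_Bcathet library overlapped the controls (0.58 ± 0.24, adjusted p = 0.22). For both sets against control, Stat2 was the 1 regulator of the 5 that was called higher without that library (0.75 ± 0.14, adjusted p = 0.0248), where 4.65% of all genes were. Irf9, its DNA-binding partner, was at 19.5, 21.7 and 23.2 FPKM in control, at 22.8, 25.1 and 26.6 in Bcathet, and at 26.1, 20.3 and 29.4 in Cdx2het_Bcathet. The groups overlapped, and Irf9 had the smallest difference among the regulators (0.21 ± 0.11, adjusted p = 0.336).

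Irf1, a factor that interferon-γ induces, was at 95.7, 89.5 and 76.6 FPKM in control, at 99.1, 104 and 141 in Bcathet, and at 115, 92.6 and 145 in Cdx2het_Bcathet. The day-10 mutant libraries were the highest and the day-9 Cdx2het_Bcathet library overlapped the controls (0.39 ± 0.16, adjusted p = 0.217). Irf7, which amplifies type I interferon expression, was at 34.1, 22.04 and 28.7 FPKM in control, at 28.6, 34.2 and 43.5 in Bcathet, and at 53.5, 34.7 and 64.5 in Cdx2het_Bcathet. The day-8 control was above the day-8 Bcathet library and level with both day-9 mutant libraries (0.56 ± 0.22, adjusted p = 0.209). Irf8, a factor best known in myeloid cells, was at 56.4, 53.6 and 48.5 FPKM in control, at 62.8, 69.2 and 102 in Bcathet, and at 79.5, 49.1 and 92.7 in Cdx2het_Bcathet. As for Stat2, the day-9 Cdx2het_Bcathet library alone overlapped the controls (0.48 ± 0.22, adjusted p = 0.258). Without that library Irf1, Irf7, Irf8 and Irf9 had adjusted p-values of 0.0803, 0.0583, 0.055 and 0.0743.

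Of the 5 sensors of foreign nucleic acid, Zbp1, which binds left-handed double helices and can trigger cell death, had the largest fold change. For both sets against control it was the 1 called without the day-9 Cdx2het_Bcathet library, where 4.65% of all genes were called higher. Zbp1 was at 24.4, 14.01 and 17.3 FPKM in control, at 27.8, 35.5 and 67.7 in Bcathet, and at 54.3, 20.9 and 87.5 in Cdx2het_Bcathet. The day-9 Cdx2het_Bcathet library lay within the control range and the other 5 above it (1.22 ± 0.45, adjusted p = 0.184, and 1.5 ± 0.33, adjusted p = 0.0431, without that library). Ifih1, which senses long double-stranded RNA, averaged 10.3 ± 1.29 FPKM in control and 11.7 ± 2.38 over the 6 mutants. Ddx58, the gene of the RNA sensor RIG-I, averaged 9.71 ± 1.18 and 10.3 ± 1.63 FPKM. Neither helicase gene separated the groups, with fold changes of 0.15 ± 0.14 for Ifih1 and 0.07 ± 0.09 for Ddx58.

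Isg15, a ubiquitin-like protein that is attached to other proteins, averaged 13.1 ± 5.79 FPKM in control against 23.3 ± 10.9 in the mutants. Its day-8 control, at 19.6 FPKM, was above 3 mutant libraries (0.75 ± 0.38, adjusted p = 0.298). Ifi35, a regulator of innate signalling, was at 50.6, 42.3 and 47.2 FPKM in control, at 48.1, 56.7 and 62.6 in Bcathet, and at 58.6, 51.4 and 72.5 in Cdx2het_Bcathet. The day-8 Bcathet library alone lay within the control range (0.31 ± 0.12, adjusted p = 0.21). Ifit2, which restrains translation of viral RNA, was at 0.987, 0.817 and 0.815 FPKM in control, at 1.64, 1.01 and 2.39 in Bcathet, and at 2.9, 1.05 and 3.85 in Cdx2het_Bcathet. All 6 mutant libraries of Ifit2 were above the controls, both day-9 libraries by a small margin (0.67 ± 0.27, adjusted p = 0.211, and 0.85 ± 0.17, adjusted p = 0.0298, without the day-9 Cdx2het_Bcathet library).

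Ifi44, a gene of the type I response chosen after its values were seen, separated the libraries in another way. It was at 1.06, 1.27 and 2.08 FPKM in control, at 1.44, 1.41 and 1.42 in Bcathet, and at 8.7, 0.163 and 6.84 in Cdx2het_Bcathet. The Bcathet libraries were level with control, days 8 and 10 of Cdx2het_Bcathet were far above it, and day 9 was below it. Its fold change for both sets was 0.43 ± 0.61 with all libraries and 0.92 ± 0.15 (adjusted p = 0.0159) without the day-9 Cdx2het_Bcathet library.

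The oligoadenylate synthetases make the messenger that activates the antiviral ribonuclease RNase L, and Oasl1 and Oasl2 are relatives, of which Oasl1 lacks this activity. Oas1a had means of 25.3 ± 6.98 FPKM in control and 34.8 ± 15.6 in the mutants, Oasl1 20.95 ± 5.49 and 33.6 ± 13.6, and Oasl2 17.9 ± 5.61 and 29.6 ± 16.2. The groups overlapped for each of these 3 genes. Of the 5 members of the family, Oas2 was called higher without the day-9 Cdx2het_Bcathet library (0.61 ± 0.12, adjusted p = 0.0263), where 4.65% of all genes were. Oas1a and Oas1g share 97.6% of their aligned transcripts, and their sum averaged 34.6 ± 10.1 FPKM in control against 49.1 ± 22.3 in the mutants.

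Of 7 other antiviral effectors, 4 were called higher without the day-9 Cdx2het_Bcathet library, where 4.65% of all genes were, and 0 with it. Among the 4, Mx1 and Mx2 passed the filter through the mutants alone, so the count is a description only. Bst2, which tethers budding virus particles to the cell, was at 14.1, 20.04 and 18.5 FPKM in control, at 20.2, 23.5 and 31.1 in Bcathet, and at 52.4, 11.3 and 49.6 in Cdx2het_Bcathet. The day-9 Cdx2het_Bcathet library was the lowest of all 9, while the other 5 mutant libraries were above control (0.64 ± 0.45, adjusted p = 0.452, and 0.99 ± 0.16, adjusted p = 0.0171, without it). Rtp4, an inhibitor of viral replication, was at 7.62, 4.96 and 8.91 FPKM in control, at 7.88, 8.68 and 10.0 in Bcathet, and at 15.3, 10.2 and 20.5 in Cdx2het_Bcathet. The first 2 Bcathet days overlapped the controls and all 3 Cdx2het_Bcathet libraries were above them (0.64 ± 0.23, adjusted p = 0.166, and 0.77 ± 0.18, adjusted p = 0.0459, without the day-9 Cdx2het_Bcathet library). Mx1, a dynamin-like GTPase against influenza viruses, was at 0.846, 0.695 and 0.892 FPKM in control, at 1.11, 1.23 and 1.3 in Bcathet, and at 2.1, 0.877 and 1.75 in Cdx2het_Bcathet. It was low in all libraries, and 5 mutant libraries were above control (0.38 ± 0.16, adjusted p = 0.215, and 0.49 ± 0.10, adjusted p = 0.0301, without that library). Mx2 was called as well without the day-9 Cdx2het_Bcathet library (0.83 ± 0.11, adjusted p = 0.0122), the smallest adjusted p of the 46 genes in that fit. Xaf1, linked to cell death, averaged 8.01 ± 0.68 FPKM in control against 14.1 ± 6.83 in the mutants and was not called in either fit (0.65 ± 0.27, adjusted p = 0.227, and 0.77 ± 0.25, adjusted p = 0.109).

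Parp9 and Dtx3l encode partners in a complex that modifies histones and STAT signalling, and Parp14 an ADP-ribosyltransferase. Parp9 averaged 18.5 ± 0.811 FPKM in control against 27.3 ± 7.01 in the mutants, Parp14 11.6 ± 2.59 and 17.4 ± 4.61, and Dtx3l 16.1 ± 1.39 and 22.6 ± 5.98. For Parp9 and Dtx3l, the day-9 Cdx2het_Bcathet library was the only mutant library not above control. All 3 genes were called higher without that library, where 4.65% of all genes were, and none with it. Without it, Parp9 was higher by 0.64 ± 0.13, Parp14 by 0.68 ± 0.16 and Dtx3l by 0.58 ± 0.13 (adjusted p = 0.0322, 0.0454 and 0.0425).

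The 3 genes of antigen processing had the lowest median fold change of the 11 roles, 0.17. Psmb8 and Psmb9, subunits of the immunoproteasome, averaged 123 ± 7.11 and 147 ± 7.79 FPKM in control against 144 ± 43.8 and 155 ± 43.7 in the mutants. Their fold changes were 0.17 ± 0.28 and 0.03 ± 0.25, and in both the day-8 Bcathet and day-9 Cdx2het_Bcathet libraries were below every control. Tap1, a subunit of the peptide transporter, was at 43.5, 37.8 and 34.6 FPKM in control, at 41.4, 62.9 and 84.0 in Bcathet, and at 82.0, 32.8 and 88.2 in Cdx2het_Bcathet. Day 8 of Bcathet lay within the control range and day 9 of Cdx2het_Bcathet below it (0.65 ± 0.34, adjusted p = 0.307, and 0.88 ± 0.21, adjusted p = 0.0504, without the latter). Cxcl10, a chemokine that draws T cells, was at 0.508, 0.265 and 0.273 FPKM in control, at 0.223, 0.68 and 1.02 in Bcathet, and at 1.13, 0.91 and 3.34 in Cdx2het_Bcathet. It was below 1 FPKM in all controls and highest in the day-10 Cdx2het_Bcathet library (0.61 ± 0.28, adjusted p = 0.255). The remaining members, Usp18, Dhx58, Oas3 and Trim30a, had means under 10 FPKM over the 9 libraries and overlapping groups. None of the 4 was called for both sets against control in either fit.

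**Figure D3:**
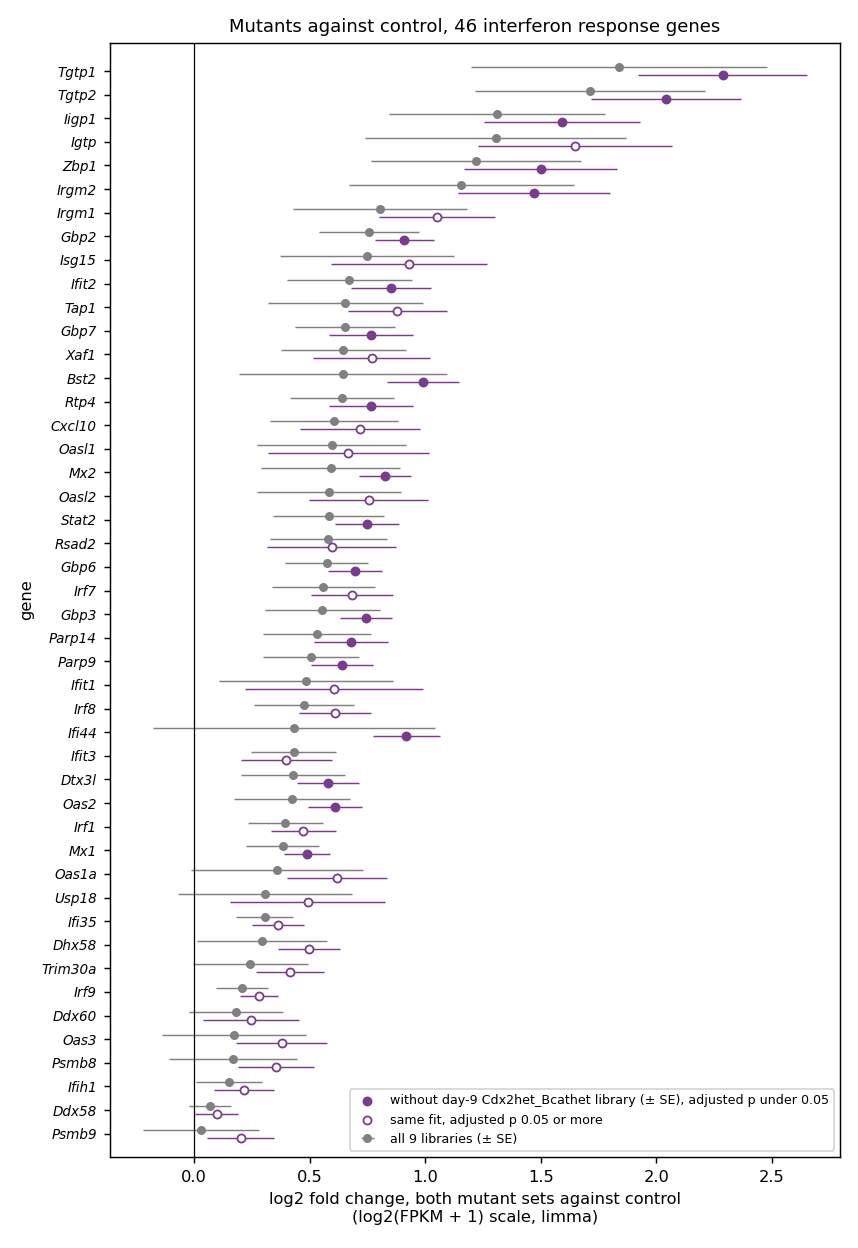
Log2 fold change of both mutant sets against control with its standard error for each of the 46 genes, from all 9 libraries (grey) and without the day-9 Cdx2het_Bcathet library (purple, filled where the adjusted p is under 0.05). The grey points run from 0.03 for Psmb9 to 1.84 for Tgtp1, and 20 purple points are filled.

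The libraries differed in how far the genes stood from control, and the day-10 Cdx2het_Bcathet library stood furthest. It held the highest value of 37 of the 46 genes, the day-8 Cdx2het_Bcathet library of 7 and the day-10 Bcathet library of 2. At days 8, 9 and 10, 21, 30 and 40 genes were above all controls in Bcathet, where 27.0%, 30.9% and 36.7% of all genes were. In Cdx2het_Bcathet the counts were 45, 17 and 46, where 31.6%, 26.6% and 35.4% of all genes were. The median of log2(FPKM + 1) minus the control mean was 0.17, 0.28 and 0.65 in Bcathet and 0.80, 0.07 and 1.19 in Cdx2het_Bcathet. For the immunity-related GTPases these medians were 0.59, 0.73 and 2.01, and 1.75, 0.24 and 2.69. For antigen processing they were −0.27, 0.34 and 0.43, and 0.69, −0.58 and 0.40.

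The controls also differed from each other, by role. The median SD of log2(FPKM + 1) among the 3 controls was 0.09 for the immunity-related GTPases and 0.11 for the guanylate-binding proteins, close to the 0.10 over all genes tested. It was 0.49 for Isg15 and Usp18, 0.39 for the oligoadenylate synthetases and 0.31 for the IFIT and IFI genes. Of the 46 genes, 28 had their highest control at day 8 and 28 their lowest at day 9, where 35.6% and 32.5% of all genes did. Isg15 followed this pattern, with controls at 19.6, 8.41 and 11.3 FPKM, as did Ifit1 with 10.1, 3.99 and 6.08.

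**Figure D4:**
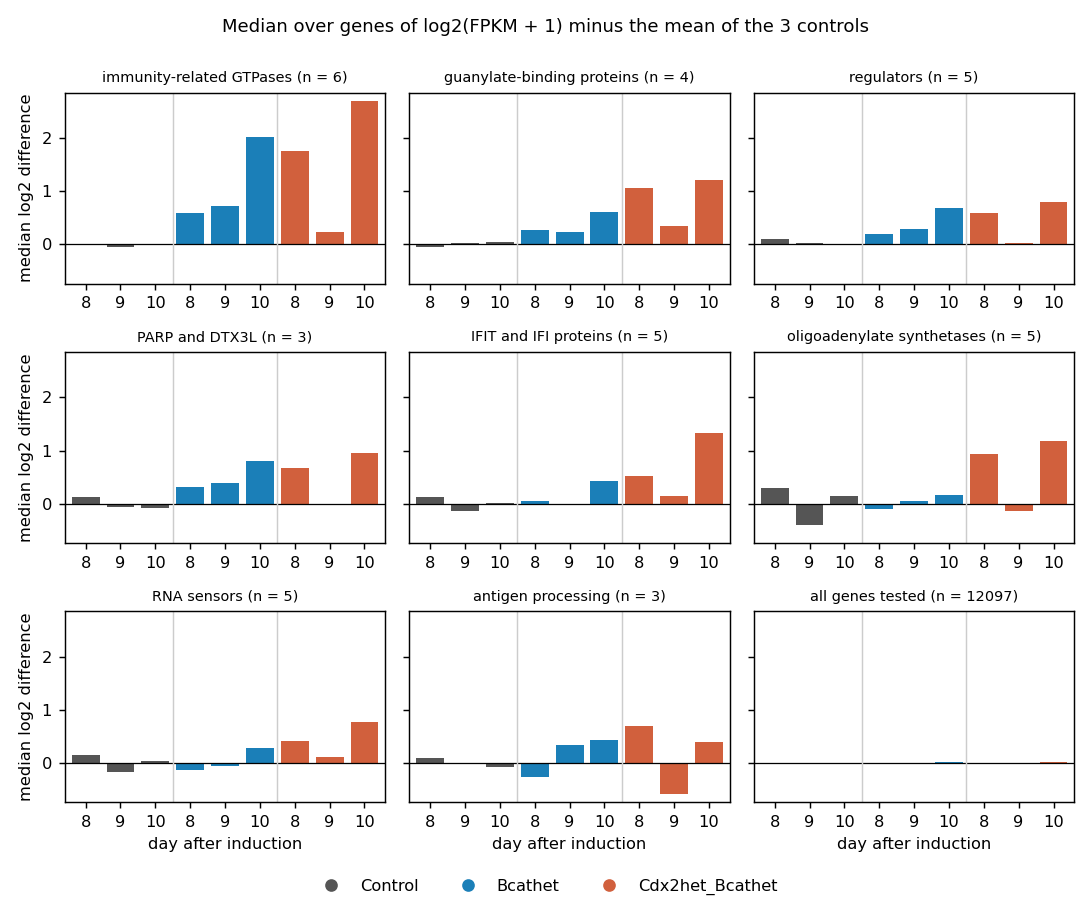
Median over the genes of 8 of the 11 roles of log2(FPKM + 1) minus the control mean, for each library (bars, by day and coloured by group), with all 12097 genes tested in the last panel. The immunity-related GTPases reach 2.69 in the day-10 Cdx2het_Bcathet library, while the oligoadenylate synthetases differ among the controls themselves and all genes stay near 0.

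Each mutant set was also compared with the same 3 controls, so the comparisons share those libraries. In Bcathet against control, 0 of 46 genes were called, against 0.215% of all genes in either direction. At an unadjusted p under 0.05 Tgtp2 alone was higher (1.44 ± 0.57, adjusted p = 0.268), where 7.76% of all genes were. The fold change was positive for 41 of the 46, with a median of 0.36, where it was positive for 49.4% of all genes. The next smallest p-values belonged to Zbp1 (1.12 ± 0.52), Tgtp1 (1.58 ± 0.74), Gbp7 (0.52 ± 0.25), Irf8 (0.52 ± 0.25) and Irf1 (0.38 ± 0.19). When the day-9 Cdx2het_Bcathet library was left out of the shared estimate of spread, 0 were called and 20 were higher at an unadjusted p under 0.05, where 10.2% of all genes were.

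In Cdx2het_Bcathet against control, 0 of 46 were called, against 0.628% of all genes in either direction, and 23 were higher at an unadjusted p under 0.05, where 8.08% of all genes were. All 46 fold changes were positive, with a median of 0.72, where 50% of all genes had a positive one. The smallest p-values were those of Gbp2 (1.10 ± 0.25, adjusted p = 0.103), Gbp6 (0.83 ± 0.21), Rtp4 (0.98 ± 0.26), Ifit3 (0.74 ± 0.21), Tgtp2 (1.99 ± 0.57) and Gbp7 (0.78 ± 0.25). Ifit3, of the IFIT family, was at 3.89 FPKM in the day-9 Cdx2het_Bcathet library and at 1.74 ± 0.66 in control. Ifit3 and Ifit3b share 97.8% of their aligned transcripts, so reads can be shared between them. Their sum was 3.03, 1.48 and 2.45 FPKM in control, 2.67, 2.15 and 2.88 in Bcathet, and 3.4, 4.82 and 5.44 in Cdx2het_Bcathet. Without the day-9 library, which leaves 2 libraries in the set, 18 genes were called higher and 0 lower, where 2.6% of all genes were higher. Tgtp1 was then 3.00 ± 0.45 higher (adjusted p = 0.0236) and Ifi44 1.84 ± 0.18 (adjusted p = 0.00743). Irf7, Irgm1 and Dhx58 were among the 18 (adjusted p = 0.0468, 0.0494 and 0.0434), though not called for both sets against control. Zbp1, called for both sets, was not among them (adjusted p = 0.0566).

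The difference between the sets was tested directly. Cdx2het_Bcathet was above Bcathet for 44 of 46 genes, where it was for 52% of all genes. The median difference was 0.36, beside 0.0047 over all genes. Of the 46, 0 were called, where 0% of all genes were called. At an unadjusted p under 0.05, 7 were higher, where 1.65% of all genes were: Ddx58 (0.31 ± 0.11), Ifit3 (0.62 ± 0.21), Gbp2 (0.68 ± 0.25), Rtp4 (0.68 ± 0.26), Gbp6 (0.52 ± 0.21), Oasl2 (0.91 ± 0.36) and Ddx60 (0.56 ± 0.24). Their adjusted p-values were 0.9999. Without the day-9 Cdx2het_Bcathet library 25 were higher at an unadjusted p under 0.05, where 2.31% of all genes were, and 0 were called, with Ifi44 nearest to the threshold (1.85 ± 0.18, adjusted p = 0.096). Leaving out the day-10 Cdx2het_Bcathet library instead gave a positive difference for 27 of the 44 genes tested, with a median of 0.09, where 49% of all genes had one. In that fit 0 were higher at an unadjusted p under 0.05, where 185 of all 12037 genes were.

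A change with time was fitted as a slope over days 8 to 10 in the 6 mutant libraries. The model held all 9 libraries, with a separate slope for the controls. The slope was positive for 43 of 46 genes, where it was positive for 54.2% of all genes. The median was 0.20 per day on the log2 scale, beside 0.0085 over all genes. Of the 46, 0 were called, where 0% of all genes were called. At an unadjusted p under 0.05, Cxcl10 (0.44 ± 0.14 per day), Rsad2 (0.35 ± 0.14) and Oasl1 (0.46 ± 0.18) had higher slopes, where 3.94% of all genes did, and each had an adjusted p of 0.759. Rsad2 encodes viperin, an antiviral enzyme. The next smallest p-values were those of Ifi35 (0.17 ± 0.07), Ifit1 (0.49 ± 0.21) and Irf1 (0.21 ± 0.09). With 1 library per group and day, the day cannot be told apart from the single library that stands for it.

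Interferon transcripts themselves were barely seen. Of 21 genes for interferon ligands, 17 were at 0 in every library and the highest value was 0.131 FPKM. Ifng, the gene of interferon-γ, was at 0.0515 FPKM or less in the controls and at 0.0545 or less in the mutants.

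Of 9 receptor and kinase genes of the pathway, 0 were called with or without the day-9 Cdx2het_Bcathet library, with 1 higher at an unadjusted p under 0.05 in each fit. Over all genes, 10.1% were higher at that p with all libraries, and 1706 of 12000 without that library. Ifngr1 was at 61.6 to 71.1 FPKM in control and 65.3 to 71.6 in the mutants, and Ifngr2 at 98.9 to 104.9 and 91.1 to 116. Ifnar1 was at 9.79 to 11.4 FPKM in control and 10.3 to 12.1 in the mutants, and Ifnlr1 at 3.9 to 4.98 and 4.12 to 5.45. Il10rb was at 41.3 to 45.8 FPKM in control and 40.1 to 57.0 in the mutants. Ifnar2 had the smallest p of the list, at 8.16 to 12.99 FPKM in control and 12.7 to 18.6 in the mutants (0.47 ± 0.17, adjusted p = 0.169).

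Among 10 other STAT, IRF and inhibitor genes 0 were called with all libraries, and of the 9 that passed the filter without the day-9 Cdx2het_Bcathet library, 3 were called higher and 1 lower. In the latter fit 4.65% of all genes were called higher and 3.64% lower. Socs3, an inhibitor that STAT3 induces, was at 14.3, 8.15 and 12.4 FPKM in control, at 78.7, 66.1 and 125 in Bcathet, and at 74.7, 14.6 and 107 in Cdx2het_Bcathet. All 6 mutant libraries were above control, day 9 of Cdx2het_Bcathet by a small margin (2.43 ± 0.57, adjusted p = 0.0815, and 2.86 ± 0.27, adjusted p = 0.0073, without that library). Stat3 (0.67 ± 0.17, adjusted p = 0.0914) and Socs1, which inhibits the JAK kinases (1.41 ± 0.48, adjusted p = 0.157), were called higher without that library, and Ptpn6, a phosphatase (−0.41 ± 0.12, adjusted p = 0.115), lower.

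Of 16 genes for sensing of foreign nucleic acid, 14 were tested and 0 called, and without the day-9 Cdx2het_Bcathet library 3 were called higher and 2 lower. Over all genes, 4.65% were called higher and 3.64% lower without that library. Tmem173, the gene of STING, was at 4.1 to 5.67 FPKM in control and 6.32 to 20.8 in the mutants (1.28 ± 0.35, adjusted p = 0.108). Myd88, an adaptor of Toll-like receptors, had a fold change of 0.42 ± 0.11 (adjusted p = 0.0959). Ikbke, a kinase that activates IRF factors, was at 17.2 to 23.8 FPKM in control and 12.4 to 15.9 in the mutants (−0.47 ± 0.10, adjusted p = 0.0642), and Traf3, which carries antiviral signals, had a fold change of −0.22 ± 0.06 (adjusted p = 0.113). These 4 were called without the day-9 Cdx2het_Bcathet library, together with Adar, an RNA-editing enzyme (0.35 ± 0.06, adjusted p = 0.0234).

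Of 70 other interferon-induced genes 52 were tested, and 1 passed with all 9 libraries. Ifitm3, which blocks entry of viruses from endosomes, rose: it was at 209, 274 and 264 FPKM in control, at 355, 346 and 335 in Bcathet, and at 626, 411 and 523 in Cdx2het_Bcathet (0.76 ± 0.14, adjusted p = 0.0458). All 6 mutant libraries were above the controls, the day-9 Cdx2het_Bcathet library among them. Of the 9 fits that each left out 1 library, the call remained in the fit without that library (0.84 ± 0.11, adjusted p = 0.00901) and was lost in the other 8, with adjusted p-values up to 0.162. It was also lost with no filter on low values (adjusted p = 0.0711) and with day as a replicate block (adjusted p = 0.076). The next smallest p-values were those of Gbp2b (1.30 ± 0.28, adjusted p = 0.0712), Slfn9 (−0.40 ± 0.12) and Ifitm1 (2.33 ± 0.72). Without the day-9 Cdx2het_Bcathet library 10 of the 52 were called higher and 0 lower, where 4.65% and 3.64% of all genes were. These calls were led by Gbp2b (1.5 ± 0.16), Ifitm3, Phf11d (0.65 ± 0.11) and Slfn5 (0.88 ± 0.16).

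**Figure D5:**
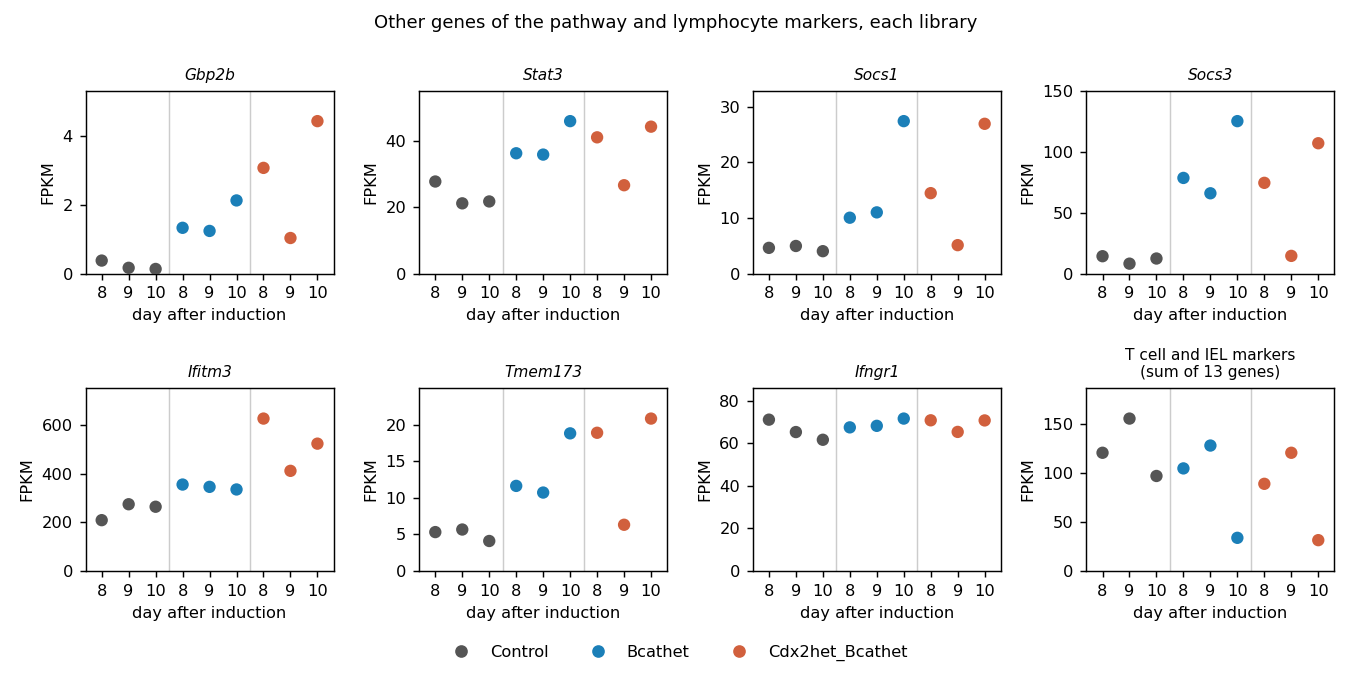
FPKM in each library (points, by day and coloured by group) of 7 other genes of the pathway, and the summed FPKM of 13 T cell and intraepithelial lymphocyte markers. Socs3, Ifitm3 and Tmem173 are above the controls in all 6 mutant libraries, Ifngr1 is level, and the lymphocyte sum is lowest in both day-10 mutant libraries.

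Markers of other cells were read beside these values. The 13 T cell and intraepithelial lymphocyte markers summed to 121, 156 and 97.3 FPKM in control, to 105, 128 and 33.9 in Bcathet, and to 89.2, 121 and 31.6 in Cdx2het_Bcathet. Both day-10 mutant libraries held the lowest lymphocyte sums. The day-10 Cdx2het_Bcathet library had the highest value of 37 of the 46 genes, and the day-10 Bcathet library of 2. Of the 10 lymphocyte markers tested 0 were called and 0 had a positive fold change (median −0.67). The 15 macrophage and dendritic cell markers summed to 17.1 to 23.0 FPKM in control and 20.04 to 35.7 in the mutants, most of it Cd14, while Csf1r was at 0.295 FPKM or less and Adgre1 at 0.104 or less in every library. Of 4 macrophage markers tested, Cd14 was called higher without the day-9 Cdx2het_Bcathet library (0.84 ± 0.16, adjusted p = 0.0255), where 4.65% of all genes were. The 10 fibroblast markers summed to 6.13 to 7.19 FPKM in control and 3.16 to 19.9 in the mutants, and were highest in the day-9 Cdx2het_Bcathet library. The 7 B and plasma cell markers summed to 48.9 to 52.2 FPKM in control and 55.6 to 68.2 in the mutants, most of it Sdc1, which epithelium also expresses. The 7 neutrophil markers summed to 3.71 to 4.72 FPKM in control and 4.07 to 6.54 in the mutants. The 10 endothelial markers summed to 2.72 to 2.92 FPKM in control and 3.14 to 6.32 in the mutants, above control in all 6. The part of these cells in the values of the 46 genes was not tested.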

How the data were processed

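The authors deposited 1 table of FPKM for 9 libraries of poly-T-selected mRNA, sequenced as read pairs per the labels' protocols. The unit was read from the values, and the median ratio of each library to the geometric mean was 1.00276 over 15138 genes, so a median-of-ratios scaling had been applied. Build mm9, DESeq2 1.40.1 and kallisto 0.46.1 are named, without role or order, per the submitters' processing notes. Fragment numbers were estimated from the smallest steps between low values in 1800 genes with transcripts of 2000 bases or more, and cover counting error only.

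Genes that reached 1 FPKM in 3 or more libraries were tested on log2(FPKM + 1) with limma 3.58.1 in R 4.3.3 (group means over all 9 libraries, trended and robust empirical Bayes, 2-sided), with Benjamini-Hochberg adjustment over the 12097 genes tested and a threshold of 0.05. The slope over days in the 6 mutant libraries was fitted in a model of all 9 libraries, with group means and a separate slope for the controls. The test was tried on simulated data with known changes. Alternatives were another pseudocount, no filter or a stricter filter, equal totals, library weights, day as a replicate block, a fit restricted to the groups in question, and omission of 1 library at a time. Deviations of same-day libraries from their group means correlated at 0.615 and 0.398 between the mutant sets on days 10 and 9 and at 0.07 or less in the other 7 same-day pairs. Between the mutant sets on different days the correlations ran from −0.552 to 0.294. The main fit did not pair libraries by day, and whether the mutant sets share an effect of day was not tested.

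The genes and lists were chosen with earlier results of these data known. Named with values were Stat2, Irf1, Irf7, Irf8, Irf9, Tgtp1 and the 12 genes of smallest p, other members at 10 FPKM or more on average, up to 6 smallest p in the other contrasts, up to 4 in each other list, and every interferon receptor. A gene of the pathway that this rule also covers is not reported here. Other members, Xist, the Y-linked genes, Adar, Slfn5, Phf11d and the cell markers by name were chosen after their values were seen. Near-identical transcripts were found with blastn 2.17.0 on GENCODE transcripts. Promoter sequences are from RefSeq, build GRCm38.p6.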

Additional observations from a re-analysis of the deposited data

Results flagged for a closer look

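Ddx58, the gene of the RNA sensor RIG-I, lay on opposite sides of the control mean in the mutant sets. All 3 Bcathet libraries, with a mean of 9.06 FPKM, were below the control mean of 9.71 FPKM, and all 3 Cdx2het_Bcathet libraries were above it. The Bcathet values lay within the control range, and neither set passed the test against control. The difference between the sets was 0.31 ± 0.11 on the log2 scale and did not pass (limma, adjusted p = 0.9999).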

How the results depend on the processing

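The number of interferon response genes called depended on how the day-9 Cdx2het_Bcathet library entered the fit. Leaving out 1 library at a time gave 0 to 20 called for both mutant sets against control and 0 to 18 for Cdx2het_Bcathet against control, the highest values without that library, and 0 for the other contrasts. Library weights gave 17 for both sets, 32 for Cdx2het_Bcathet against control and 15 for the slope, whose weights had stopped before they converged. Over all genes the weights gave 1099 higher and 936 lower for Cdx2het_Bcathet against control and 1324 and 849 for the slope. Of the 17, 16 were among the 20. Under the other settings, with day as a replicate block included, 0 were called, and the slope had no block fit. For both sets the fit to the compared groups alone is the same fit. Over all genes, both sets gave 62 calls higher and 78 lower, against 133 and 36 with equal totals, 42 and 38 with no filter, 48 and 49 with the replicate block, and 753 and 685 with library weights. Leaving out a library gave from 13 and 4 (without the day-10 control) to 558 and 437 (without the day-9 Cdx2het_Bcathet library).

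In the fits without 1 library, 42 of 46 genes had a positive fold change for both sets in every fit in which they were tested, which was all 9 fits for 44 of the 46. Without the day-9 control, Ddx58 was at −0.018 (range over these fits to 0.14), Ddx60 at −0.049 (to 0.38) and Oas3 at −0.036 (to 0.38). Psmb9 ran from −0.084 to 0.20, with −0.016, −0.014, −0.026 and −0.030 in the other negative fits. Ifngr2 ran from −0.068 to 0.019 and was 0.029 with equal totals. The cause was not tested. Genes with controls under 1 FPKM rest on few fragments, which limits their fold changes.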
